A study of Homo sapiens with 8 samples.

Results

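The 54 genes described here encode proteins of DNA replication and the E2F transcription factors, and they were taken by symbol from a table of 58735 annotated genes. They cover origin licensing, the replicative helicase, fork protection, the DNA polymerases and primase, the sliding clamp with its loaders, nucleotide supply, the copying of chromatin, and the 4 factors E2F1, E2F2, E2F7 and E2F8. RNA-seq was performed on HCT116, an established human colorectal carcinoma cell line, in 4 groups of 2 libraries, and every group carried an shRNA. Cells with a control shRNA spent 24 h in DMEM that held 0 mM glucose, cells with MAPKAPK2 shRNA 1 or with MAPKAPK2 shRNA 2 were kept at 20 mM glucose, and the control-shRNA cells kept for 24 h at 20 mM glucose were the comparison for all of them. MAPKAPK2 encodes MK2, a protein kinase activated by p38 MAP kinase. The labels leave out how long the knockdown cells grew, how the shRNAs were delivered and whether both libraries of a group came from separate cultures, so each p-value below speaks to the spread among these libraries alone.

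Replication origins are licensed in G1, when ORC, CDC6 and CDT1 load the MCM2 to MCM7 ring onto DNA. The ring becomes an active helicase in S phase when CDC45 and GINS join it, and polymerases, a sliding clamp and nucleotide-producing enzymes then copy the DNA. Many of these genes are transcribed in late G1 and S phase through E2F sites in their promoters, which RB-family proteins keep silent in resting cells. E2F1 and E2F2 are activators of that programme, and E2F7 and E2F8 are repressors that are themselves E2F targets.

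The 8 libraries held 14252316 to 19975449 reads in genes. The deposited unit is FPKM, fragments scaled to library size and to the length of all annotated exons of a gene. That length need not be the length of the RNA present in these cells, so levels of different genes compare only roughly. Fold changes below are differences of log2(FPKM + 1), fitted with limma to 16239 genes that reached 1 FPKM in at least 2 libraries, and this scale understates the change of genes with low FPKM. A gene was called when its Benjamini-Hochberg adjusted p over all 16239 genes was below 0.05, and the comparison of both shRNAs with the control also required the same sign with each. All 54 members passed the filter, with 81 to 10490 reads per library, so the Poisson standard deviation from counting was at most 11.1% of a value. MAPKAPK2 itself, the targeted gene, had 17.9 and 18.9 FPKM in the 0 mM libraries, 2.77 and 2.54 FPKM with shRNA 1, 0.982 and 0.800 FPKM with shRNA 2 and 16.4 and 16.2 FPKM in the 20 mM controls, and its log2 fold change with both shRNAs was -2.72 ± 0.08 (SE; adjusted p = 5.93e-05, limma). Of 7 epithelial markers, 6 passed the filter and LGALS4 did not, with at most 0.256 FPKM in any library. EPCAM had 95.4 and 97.5 FPKM in the 0 mM libraries, 139 and 131 FPKM with shRNA 1, 70.0 and 68.2 FPKM with shRNA 2 and 108 and 116 FPKM in the 20 mM controls, and CDH1, which encodes E-cadherin, had 14.8 and 16.8 FPKM in the 0 mM libraries, 27.2 and 27.5 FPKM with shRNA 1, 9.62 and 10.8 FPKM with shRNA 2 and 15.1 and 13.5 FPKM in the 20 mM controls. Of the 6, 4 fell and 0 rose with shRNA 2 (EPCAM, CDH1, KRT8 and KRT18), where 7.73% of all genes were lower and 11.1% higher. With shRNA 1, 0 fell and 1 rose (CDH1, 0.89, adjusted p = 0.0029), where the shares were 10.5% and 9.35%. The part of these markers in the results below was not tested. Of 8 markers of blood, endothelium and fibroblasts, COL1A1 alone passed the filter, and the fibroblast marker DCN was at 0 in every library. COL1A1 had 6.25 and 5.63 FPKM in the 0 mM libraries, 3.84 and 4.03 FPKM with shRNA 1, 4.58 and 4.09 FPKM with shRNA 2 and 6.72 and 6.28 FPKM in the 20 mM controls. It was called lower with both shRNAs (-0.55, adjusted p = 0.0077, limma) and with each. Overlapping annotation limits a few members. The exons of TYMS overlap other genes over 46.6% of their length, those of POLA2 over 35.1%, MCM2 and GINS4 over 23.6% each, PRIM1 over 21.6% and RRM2 over 20.2%. By name, PCNA, RPA2 and RRM2 have 3 annotated pseudogenes each, TYMS has 2, and POLD2, FEN1, RFC3 and RFC5 have 1 each. Their part in the values was not tested. No source used here says whether strand was used in counting, so reads of TYMS and its antisense neighbour ENOSF1 cannot be told apart.

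Promoter sequences were examined because the group is known for E2F control. RefSeq promoters (GRCh38.p14), which span 250 bases before the annotated start and 50 after it, were matched for 46 of the 54 members. The first entry was kept for each member, whereas all promoters of the background were counted. For 39 of the 46, bases after the start were found in a GENCODE transcript of the same gene. They were searched on both strands for 4 spellings of the E2F site, TTTCCCGC, TTTCGCGC, TTTGCCGC and TTTGGCGC, with overlapping matches counted separately. At least 1 of them was found in 22 of the 46 member promoters (47.8%), against 3.31% of all 35116 promoters in the table. The CCAAT box was found in 28 of 46 (60.9%), against 34.6% of all promoters, and the letters TTTGAA of the CHR element, known from late cell cycle genes, in 2 of 46 (4.35%), against 15.2%. A match describes these letters only and is not evidence of binding, and a promoter without one lacks these letters in this window and nothing more.

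The promoters of the 5 members with the largest falls under both shRNAs are shown, with that of E2F1, which held 2 matches, and that of GMNN, which held none and had the largest difference under 0 mM glucose. Each is printed on the strand of its gene, in lower case with the E2F letters in capitals, where a match on the opposite strand appears as its reverse complement. CDC6 lies at chr17:40287629-40287928 on the plus strand, with the match 8 bases into the transcribed part. UHRF1 lies at chr19:4909251-4909550 (plus) and TYMS at chr18:657403-657702 (plus). E2F2 lies at chr1:23531184-23531483 (minus) and DNMT1 at chr19:10194904-10195203 (minus). The UHRF1 and DNMT1 windows lie inside the GENCODE bounds of their genes, chr19:4903080-4962154 and chr19:10133345-10231286. E2F1 lies at chr20:33686336-33686635 (minus) and GMNN at chr6:24774687-24774986 (plus).
CDC6: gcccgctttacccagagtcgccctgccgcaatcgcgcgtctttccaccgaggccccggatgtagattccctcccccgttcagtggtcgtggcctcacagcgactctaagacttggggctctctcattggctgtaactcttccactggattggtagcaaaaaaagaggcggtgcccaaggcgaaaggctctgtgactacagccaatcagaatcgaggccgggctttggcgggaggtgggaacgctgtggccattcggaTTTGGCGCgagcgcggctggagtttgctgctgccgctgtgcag
UHRF1: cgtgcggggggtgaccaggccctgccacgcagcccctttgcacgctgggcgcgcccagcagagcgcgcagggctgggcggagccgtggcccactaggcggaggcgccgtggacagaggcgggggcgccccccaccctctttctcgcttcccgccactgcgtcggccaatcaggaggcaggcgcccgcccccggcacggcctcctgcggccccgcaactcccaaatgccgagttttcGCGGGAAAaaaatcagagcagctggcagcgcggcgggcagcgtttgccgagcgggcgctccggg
TYMS: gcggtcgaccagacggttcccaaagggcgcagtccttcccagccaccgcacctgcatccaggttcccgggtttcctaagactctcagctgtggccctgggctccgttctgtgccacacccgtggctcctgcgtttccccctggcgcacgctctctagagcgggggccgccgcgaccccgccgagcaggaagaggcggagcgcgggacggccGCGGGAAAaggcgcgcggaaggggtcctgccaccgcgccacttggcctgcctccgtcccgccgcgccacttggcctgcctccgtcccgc
E2F2: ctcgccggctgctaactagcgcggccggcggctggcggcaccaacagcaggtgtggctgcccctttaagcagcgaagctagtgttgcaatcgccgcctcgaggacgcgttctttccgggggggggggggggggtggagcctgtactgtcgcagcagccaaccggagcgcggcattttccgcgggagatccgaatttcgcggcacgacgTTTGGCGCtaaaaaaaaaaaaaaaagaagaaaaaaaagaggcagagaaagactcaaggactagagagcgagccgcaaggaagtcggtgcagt
DNMT1: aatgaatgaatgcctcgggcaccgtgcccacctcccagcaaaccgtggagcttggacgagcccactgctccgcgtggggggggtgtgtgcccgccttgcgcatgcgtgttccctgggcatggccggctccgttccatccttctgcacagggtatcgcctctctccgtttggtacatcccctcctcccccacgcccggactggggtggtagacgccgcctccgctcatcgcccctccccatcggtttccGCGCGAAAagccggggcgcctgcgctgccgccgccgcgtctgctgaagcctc
E2F1: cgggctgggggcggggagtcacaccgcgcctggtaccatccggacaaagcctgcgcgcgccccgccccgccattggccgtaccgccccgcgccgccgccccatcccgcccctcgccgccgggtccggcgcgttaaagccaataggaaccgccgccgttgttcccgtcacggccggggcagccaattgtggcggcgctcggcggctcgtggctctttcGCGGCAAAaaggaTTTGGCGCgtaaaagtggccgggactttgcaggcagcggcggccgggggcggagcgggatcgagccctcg
GMNN: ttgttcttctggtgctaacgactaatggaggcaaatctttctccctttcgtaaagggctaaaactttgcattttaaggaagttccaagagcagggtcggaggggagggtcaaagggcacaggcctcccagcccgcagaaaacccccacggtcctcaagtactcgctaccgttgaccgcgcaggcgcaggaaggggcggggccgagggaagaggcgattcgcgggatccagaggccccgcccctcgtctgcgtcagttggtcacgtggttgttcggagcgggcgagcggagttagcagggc

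The 5 matches of the members with large falls began between 42 bases before the start, in E2F2, and 8 bases after it, in CDC6. The matches in E2F1 began 33 and 20 bases before the start. An E2F match was held by 15 of the 31 members with a promoter that were called under both shRNAs, and by 7 of the 15 that were not called.

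**Figure D1:**
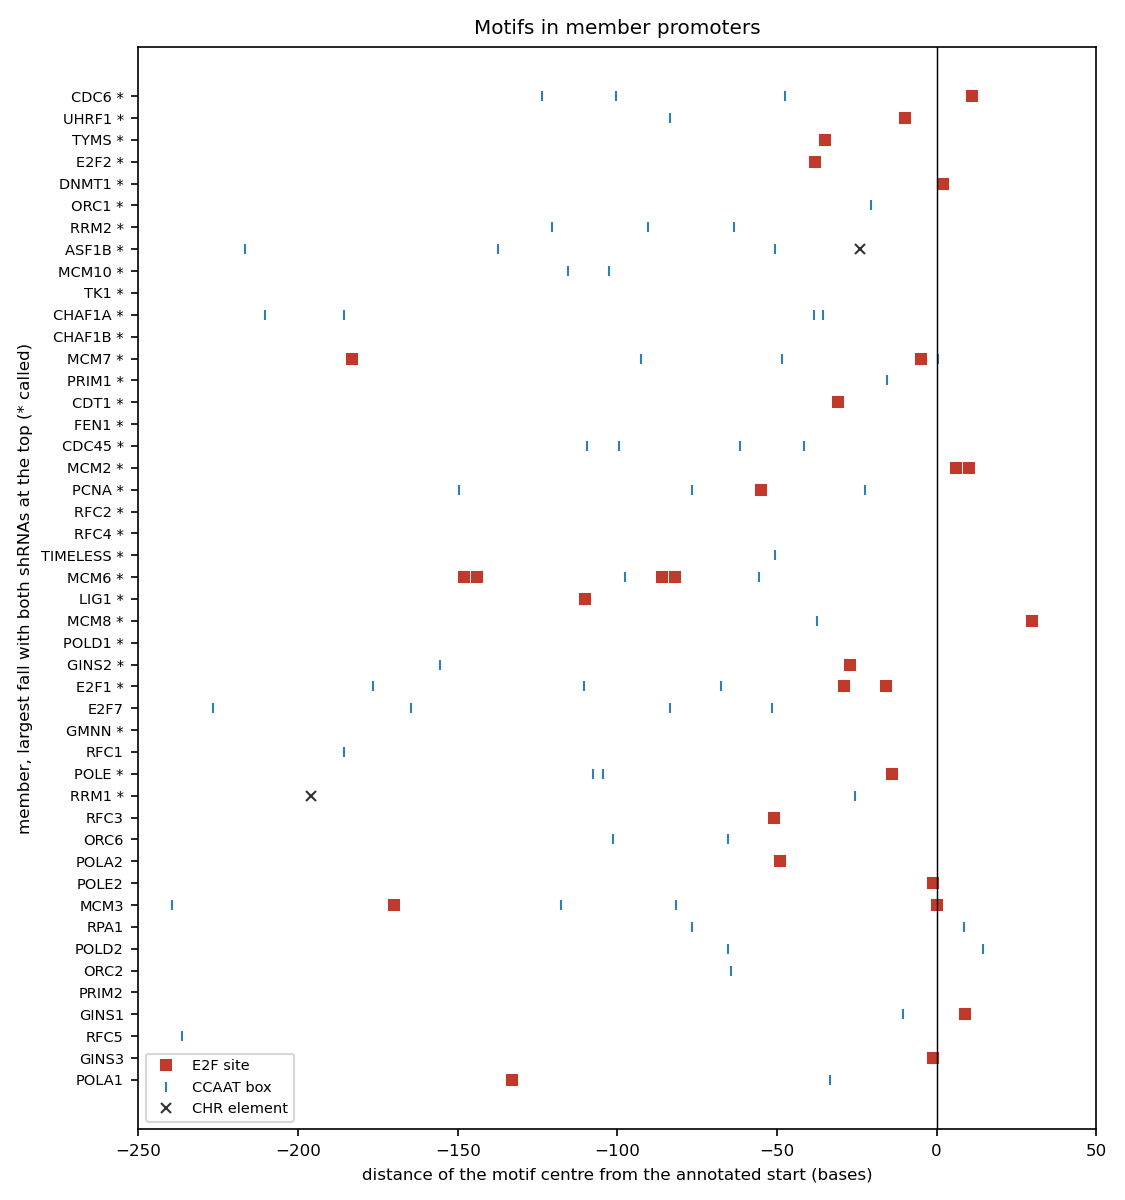
Positions of E2F sites (red squares), CCAAT boxes (blue bars) and CHR elements (crosses) in the 46 member promoters, as the distance of the motif centre from the annotated start in bases. Members run down the page from the largest fall with both shRNAs, with an asterisk on those called, and E2F sites are found in 22 of the 46 promoters.

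In the 20 mM controls the members spanned a wide range of levels per length. PCNA, the sliding clamp, had 176 and 198 FPKM and TK1, the thymidine kinase of the salvage pathway, had 178 and 172 FPKM, and these overlapped at the top of the range. MCM7 followed with 123 and 126 FPKM. The lowest was POLA2, the accessory subunit of polymerase alpha, with 1.70 and 1.46 FPKM. The median member stood at 20.6 FPKM. The 6 subunits of the MCM2 to MCM7 ring, which assemble in equal number, differed 3.87-fold in FPKM between MCM5 at a mean of 32.2 FPKM and MCM7 at a mean of 125 FPKM. The exon lengths used were 7338 bases for MCM5 and 4386 bases for MCM7, and the part of length in this difference was not tested.

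Knockdown of MAPKAPK2 was accompanied by lower RNA of most members. With both shRNAs, by the mean of the 2 against the controls, 37 of the 54 members fell and 0 rose. Of all genes tested, 7.77% were called lower and 9.56% higher. A fall in this comparison need not be a call with each shRNA. The log2 fold change was below 0 for 50 of the 54, with a median of -0.47, against -0.0041 over all genes. All 4 knockdown libraries lay below both 20 mM controls for 38 members, a pattern that 14.9% of all genes showed, and above both controls for 0 members (16% of all genes). Bulk RNA cannot tell fewer cells in S phase from less RNA per cell, and this holds for every comparison below. The median member stood at 66.8% and 63.1% of the 20 mM mean in the shRNA 1 libraries, 74.9% and 75.8% in the shRNA 2 libraries, and 99.1% and 101% in the 20 mM controls. Leaving out 20 mM control library 1 or 2 gave fewer calls among the members and among all genes. The members' median log2 fold change was then -0.51 or -0.46. The calls of CDC6, ORC1, MCM10, PRIM1, RRM2, TYMS, UHRF1, DNMT1, CHAF1A, ASF1B and E2F2 were kept in all 26 alternatives tried, these 2 included.

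**Figure D2:**
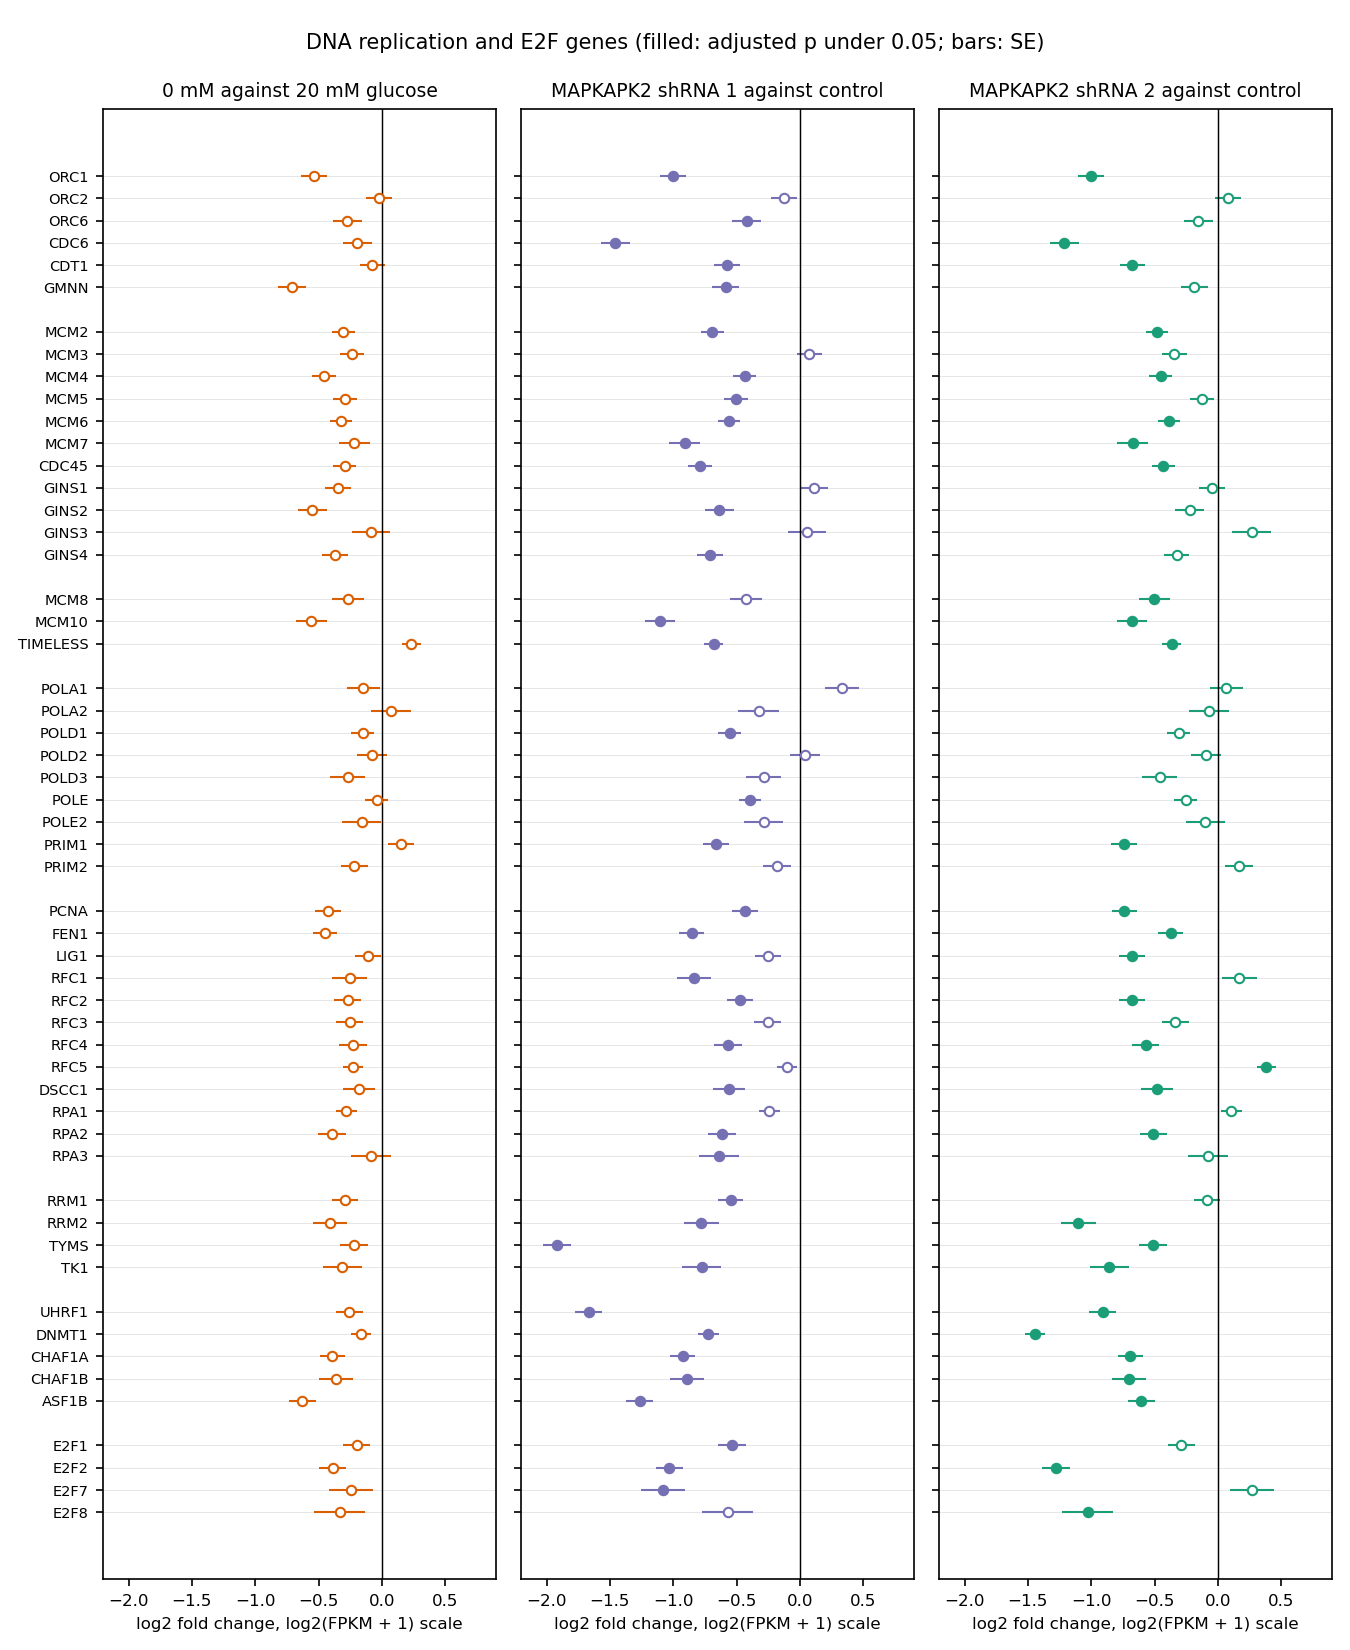
Log2 fold change (x axis, log2(FPKM + 1) scale) of each of the 54 members, in rows by role, for 0 mM glucose, shRNA 1 and shRNA 2, each against the 20 mM controls. Bars are standard errors from limma, filled points have an adjusted p below 0.05, and filled points are absent for glucose, number 38 for shRNA 1 and number 30 for shRNA 2, of which RFC5 alone lies above 0.

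By shRNA, 38 members fell and 0 rose with shRNA 1 (10.5% of all genes lower, 9.35% higher), with a median log2 fold change of -0.57. With shRNA 2, 29 fell and 1 rose (7.73% lower, 11.1% higher), with a median of -0.41. Both comparisons use the same 2 control libraries. Both libraries of shRNA 1 lay below both controls for 49 members (34% of all genes) and above both for 2 (31.7%). Both libraries of shRNA 2 lay below both controls for 39 members (27.5%) and above both for 3 (29.9%). Without either control library or either shRNA 1 library fewer members and fewer of all genes fell with shRNA 1, and the members' median was -0.61 to -0.53. Without control library 1 or 2 fewer members and fewer of all genes fell with shRNA 2, with a median of -0.405 or -0.382. When only the shRNA 2 and control libraries were fitted, 11 members fell with shRNA 2, against 353 of all 16239 genes. The 2 shRNA 2 libraries differed from each other more than those of the other groups, with a chi-square of reads per gene of 30.6, against 6.08 to 11.6 in the other 3 groups. Without either shRNA 2 library 28 members fell with shRNA 2.

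Of the licensing factors, 4 of 6 fell with both shRNAs, which here and below means in the comparison of their mean with the controls. CDC6, the ATPase that brings the MCM ring to the origin, had 23.6 and 25.9 FPKM in the 0 mM libraries, 9.14 and 10.3 FPKM with shRNA 1, 10.7 and 12.8 FPKM with shRNA 2 and 27.8 and 29.2 FPKM in the 20 mM controls. All 4 knockdown values were below both the 20 mM and the 0 mM values, and the log2 fold change with both shRNAs was -1.34 ± 0.10 (SE; adjusted p = 0.000656). ORC1, the largest ORC subunit, had 8.95 and 9.16 FPKM with shRNA 1 and 8.50 and 9.72 FPKM with shRNA 2, against 20.2 and 18.2 FPKM in the 20 mM controls, a log2 fold change of -1.0 ± 0.09 (adjusted p = 0.00111). The knockdown values did not overlap those of the controls, and the fold change was -1.0 with each shRNA. CDT1, the partner of CDC6 in loading, had 41.3 and 35.9 FPKM with shRNA 1 and 37.8 and 33.9 FPKM with shRNA 2, against 58.9 and 56.8 FPKM in the 20 mM controls, and fell by 0.63 on the log2 scale (adjusted p = 0.00497). GMNN encodes geminin, which binds CDT1 and blocks a further round of loading. It had 13.4 and 13.7 FPKM with shRNA 1 and 17.3 and 19.3 FPKM with shRNA 2, against 19.3 and 22.6 FPKM in the 20 mM controls, and it fell with shRNA 1 (log2 fold change -0.59 ± 0.11, adjusted p = 0.0119) but was not called with shRNA 2 (-0.19 ± 0.11, adjusted p = 0.283), where one library lay at the level of the lower control. ORC6 was called with shRNA 1 alone (-0.42, adjusted p = 0.0413). ORC2 passed no test, with 9.15 and 10.3 FPKM with shRNA 1 and 10.5 and 12.2 FPKM with shRNA 2, against 10.7 and 10.7 FPKM in the 20 mM controls.

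Of the helicase genes, 8 of 11 fell with both shRNAs, among them 5 of the 6 subunits of the ring. MCM7 had 67.4 and 64.2 FPKM with shRNA 1 and 85.4 and 70.7 FPKM with shRNA 2, against 123 and 126 FPKM in the 20 mM controls, the largest difference of the 6, at -0.79 ± 0.11 (SE; adjusted p = 0.00428). MCM2 had 23.4 and 21.8 FPKM with shRNA 1 and 26.5 and 26.0 FPKM with shRNA 2, against 39.0 and 35.3 FPKM in the 20 mM controls, a log2 fold change of -0.59 ± 0.08 (adjusted p = 0.00379). MCM6 had 28.8 and 26.4 FPKM with shRNA 1 and 30.9 and 31.6 FPKM with shRNA 2, against 39.6 and 42.9 FPKM in the 20 mM controls, at -0.47 ± 0.08 (adjusted p = 0.0077). These 3 fell with each shRNA and no knockdown library reached a control value. MCM4 fell by 0.44 (adjusted p = 0.0121), with 41.8 and 41.2 FPKM with shRNA 1 and 38.5 and 43.8 FPKM with shRNA 2, against 56.8 and 56.3 FPKM in the 20 mM controls. MCM5 had 24.0 and 20.9 FPKM with shRNA 1 and 30.5 and 28.4 FPKM with shRNA 2, against 31.5 and 32.9 FPKM in the 20 mM controls, and its fold change of -0.31 ± 0.08 with both shRNAs (adjusted p = 0.0422) came with a call for shRNA 1 (-0.50, adjusted p = 0.0138) and none for shRNA 2 (-0.12, adjusted p = 0.43). MCM3 was the one subunit that passed no test against the controls, with 77.5 and 70.1 FPKM with shRNA 1 and 52.5 and 57.3 FPKM with shRNA 2, against 67.7 and 72.2 FPKM in the 20 mM controls. Both of its shRNA 1 libraries lay near the controls and both of its shRNA 2 libraries lay below them. With MCM7 lower, the highest of the 6 mean levels with shRNA 1 was that of MCM3 at 73.8 FPKM, 3.29-fold above the lowest.

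Of CDC45 and the GINS subunits, which turn the ring into a moving helicase, 3 of 5 fell with both shRNAs. CDC45 had 8.32 and 8.32 FPKM with shRNA 1 and 11.4 and 10.5 FPKM with shRNA 2, against 15.8 and 14.5 FPKM in the 20 mM controls, and fell by 0.61 on the log2 scale (adjusted p = 0.00387). All 4 knockdown values were below both controls. GINS2 (-0.43, adjusted p = 0.0277) and GINS4 (-0.52, adjusted p = 0.00955) fell with both shRNAs. GINS1 (0.03, adjusted p = 0.827) and GINS3 (0.16, adjusted p = 0.444) passed no test. MCM10, which helps activate the helicase and bind primase, had 9.25 and 10.3 FPKM in the 0 mM libraries, 6.21 and 6.47 FPKM with shRNA 1, 7.86 and 9.98 FPKM with shRNA 2 and 14.8 and 14.8 FPKM in the 20 mM controls. Its fold change of -0.89 ± 0.10 (SE; adjusted p = 0.00269) was the largest of its class. TIMELESS, a fork protection factor, had 28.7 and 28.8 FPKM in the 0 mM libraries, 15.1 and 14.5 FPKM with shRNA 1, 18.2 and 19.1 FPKM with shRNA 2 and 24.4 and 24.3 FPKM in the 20 mM controls. It fell with both shRNAs (-0.52 ± 0.07, adjusted p = 0.00365), while its 0 mM values lay above both controls. MCM8, a helicase of recombination repair, fell by 0.46 (adjusted p = 0.0289).

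Of the polymerase and primase subunits, 3 of 9 fell with both shRNAs. PRIM1, the catalytic subunit of primase that makes the RNA primers, had 7.10 and 6.01 FPKM with shRNA 1 and 6.37 and 5.89 FPKM with shRNA 2, against 10.8 and 11.0 FPKM in the 20 mM controls. It was lower in all 4 knockdown libraries (-0.70 ± 0.09, adjusted p = 0.00353), whereas PRIM2, the other primase subunit, had 8.21 and 7.30 FPKM with shRNA 1 and 9.37 and 10.9 FPKM with shRNA 2, against 8.43 and 9.41 FPKM in the 20 mM controls and passed no test (-0.01, adjusted p = 0.963). POLD1, the catalytic subunit of polymerase delta, had 14.9 and 15.0 FPKM with shRNA 1 and 18.9 and 16.9 FPKM with shRNA 2, against 23.2 and 21.7 FPKM in the 20 mM controls, a difference of -0.43 ± 0.08 (adjusted p = 0.0121). POLE, that of polymerase epsilon, had 11.9 and 12.2 FPKM with shRNA 1 and 12.8 and 13.9 FPKM with shRNA 2, against 16.9 and 15.5 FPKM in the 20 mM controls, at -0.33 ± 0.08 (adjusted p = 0.0294). POLD1 and POLE were each called with shRNA 1 and not with shRNA 2, while PRIM1 was called with each. POLD3 had 4.21 and 4.02 FPKM with shRNA 1 and 3.13 and 3.98 FPKM with shRNA 2, against 4.96 and 5.54 FPKM in the 20 mM controls, all 4 knockdown values below both controls, but it did not pass the test (-0.37, adjusted p = 0.0755). POLA1, POLA2, POLD2 and POLE2 had log2 fold changes of 0.20, -0.20, -0.03 and -0.19 and passed no test.

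The clamp and its loaders, the single-strand binding protein RPA and the enzymes that join Okazaki fragments gave 7 calls among 12. PCNA, the clamp that tethers polymerases, had 134 and 144 FPKM in the 0 mM libraries, 144 and 133 FPKM with shRNA 1, 111 and 112 FPKM with shRNA 2 and 176 and 198 FPKM in the 20 mM controls. Its log2 fold change with both shRNAs was -0.59 ± 0.09 (SE; adjusted p = 0.00649). Its shRNA 2 libraries were the lowest, and those of shRNA 1 overlapped those at 0 mM. FEN1, the flap nuclease of Okazaki fragment processing, had 35.9 and 32.7 FPKM with shRNA 1 and 51.6 and 45.3 FPKM with shRNA 2, against 61.8 and 63.9 FPKM in the 20 mM controls, at -0.61 ± 0.08 (adjusted p = 0.00452). LIG1, the ligase that seals the fragments, fell with shRNA 2 (-0.68 ± 0.10, adjusted p = 0.00601) and was not called with shRNA 1 (-0.25 ± 0.10, adjusted p = 0.133). RFC2, a subunit of the clamp loader, had 19.1 and 19.5 FPKM with shRNA 1 and 16.8 and 16.3 FPKM with shRNA 2, against 25.1 and 29.4 FPKM in the 20 mM controls, a fold change of -0.58 ± 0.09 (adjusted p = 0.0077). RFC4 (-0.57), DSCC1 of the alternative loader (-0.52) and RPA2 (-0.56) also fell with both shRNAs and with each.

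The remaining loader and RPA subunits differed in pattern. RFC1, the large loader subunit, had 8.40 and 9.50 FPKM with shRNA 1 and 16.5 and 21.8 FPKM with shRNA 2, against 17.1 and 16.4 FPKM in the 20 mM controls, and fell with shRNA 1 alone (-0.84 ± 0.14, adjusted p = 0.0083). RFC5 was the only member called as rising in any comparison with the controls, with 16.7 and 17.6 FPKM in the 0 mM libraries, 18.9 and 18.8 FPKM with shRNA 1, 26.4 and 27.1 FPKM with shRNA 2 and 20.1 and 20.5 FPKM in the 20 mM controls. Its log2 fold change with shRNA 2 was 0.38 ± 0.08 (adjusted p = 0.0172), a call that was lost under quantile normalization, when only the groups compared were fitted and without either 20 mM control, and with shRNA 1 it was -0.10 ± 0.08 (adjusted p = 0.403). RPA3 fell with shRNA 1 (-0.64, adjusted p = 0.0324). RFC3 (-0.30, adjusted p = 0.0695) and RPA1 (-0.07, adjusted p = 0.547) passed no test against the controls.

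All 4 genes of nucleotide supply fell with both shRNAs. TYMS, thymidylate synthase, the enzyme that makes the thymidine nucleotide from deoxyuridine monophosphate, had 22.7 and 23.6 FPKM in the 0 mM libraries, 6.26 and 6.65 FPKM with shRNA 1, 20.6 and 17.0 FPKM with shRNA 2 and 28.0 and 26.3 FPKM in the 20 mM controls. Its log2 fold change of -1.92 ± 0.11 with shRNA 1 (SE; adjusted p = 0.000409) was the largest of any member in any group, and with shRNA 2 it was -0.51 ± 0.11 (adjusted p = 0.0197). RRM2, the S-phase subunit of ribonucleotide reductase, had 35.2 and 41.3 FPKM in the 0 mM libraries, 29.4 and 29.3 FPKM with shRNA 1, 20.7 and 26.0 FPKM with shRNA 2 and 48.0 and 54.3 FPKM in the 20 mM controls. It fell by 0.94 with both shRNAs (adjusted p = 0.0034), with the lowest values in the shRNA 2 libraries. RRM1, the large subunit of the same enzyme, fell with shRNA 1 (-0.55, adjusted p = 0.0126) and was not called with shRNA 2 (-0.09, adjusted p = 0.609). TK1 had 112 and 92.1 FPKM with shRNA 1 and 108 and 85.1 FPKM with shRNA 2, against 178 and 172 FPKM in the 20 mM controls, and no knockdown value reached a control value (-0.82 ± 0.13, adjusted p = 0.00859).

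The genes that copy chromatin behind the fork were called without exception, all 5 with both shRNAs and with each shRNA alone. UHRF1, which recognises hemimethylated DNA and recruits the maintenance methyltransferase, had 46.3 and 41.5 FPKM in the 0 mM libraries, 16.7 and 15.1 FPKM with shRNA 1, 28.4 and 26.7 FPKM with shRNA 2 and 56.1 and 49.5 FPKM in the 20 mM controls, a log2 fold change of -1.29 ± 0.09 with both shRNAs (SE; adjusted p = 0.000598). DNMT1, that methyltransferase, had 35.6 and 36.8 FPKM in the 0 mM libraries, 24.6 and 23.9 FPKM with shRNA 1, 14.5 and 14.1 FPKM with shRNA 2 and 41.9 and 39.4 FPKM in the 20 mM controls, at -1.08 ± 0.07 (adjusted p = 0.000411). In both genes the 4 groups did not overlap, with UHRF1 lowest under shRNA 1 and DNMT1 lowest under shRNA 2. The histone chaperone ASF1B had 29.7 and 25.8 FPKM in the 0 mM libraries, 18.6 and 16.4 FPKM with shRNA 1, 29.4 and 27.1 FPKM with shRNA 2 and 43.6 and 43.2 FPKM in the 20 mM controls, at -0.94 ± 0.09 (adjusted p = 0.00162). CHAF1A and CHAF1B, subunits of the chromatin assembly factor that places new histones, fell by 0.81 and 0.80 on the log2 scale with both shRNAs. The values of CHAF1A were 14.4 and 13.1 FPKM with shRNA 1 and 16.8 and 15.9 FPKM with shRNA 2, against 28.9 and 25.3 FPKM in the 20 mM controls.

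Of the E2F factors, 3 of 4 fell with both shRNAs. The activator E2F2 had 6.39 and 6.73 FPKM in the 0 mM libraries, 4.05 and 3.64 FPKM with shRNA 1, 2.80 and 3.38 FPKM with shRNA 2 and 9.17 and 8.64 FPKM in the 20 mM controls. Its fold change was -1.16 ± 0.09 (SE; adjusted p = 0.000891), and all 4 knockdown libraries lay below every control library. The activator E2F1 was measured at 12.0 and 14.1 FPKM with shRNA 1 and 16.7 and 14.7 FPKM with shRNA 2, against 19.5 and 19.3 FPKM in the 20 mM controls, a fold change of -0.41 ± 0.09 (adjusted p = 0.0257), and it was called with shRNA 1 (-0.54) but not with shRNA 2 (-0.29, adjusted p = 0.112). The repressor E2F8 had 5.48 and 4.88 FPKM with shRNA 1 and 2.60 and 4.61 FPKM with shRNA 2, against 8.22 and 8.13 FPKM in the 20 mM controls, at -0.80 ± 0.17 (adjusted p = 0.023), and it was called with shRNA 2 (-1.03, adjusted p = 0.0149) but not with shRNA 1 (-0.57, adjusted p = 0.0938). The repressor E2F7 had 6.19 and 7.91 FPKM in the 0 mM libraries, 3.44 and 3.53 FPKM with shRNA 1, 8.77 and 12.3 FPKM with shRNA 2 and 9.09 and 7.88 FPKM in the 20 mM controls. It fell with shRNA 1 (-1.08 ± 0.17, adjusted p = 0.00817), whereas both of its shRNA 2 libraries lay within or above the range of the controls (0.27 ± 0.17, adjusted p = 0.339).

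**Figure D3:**
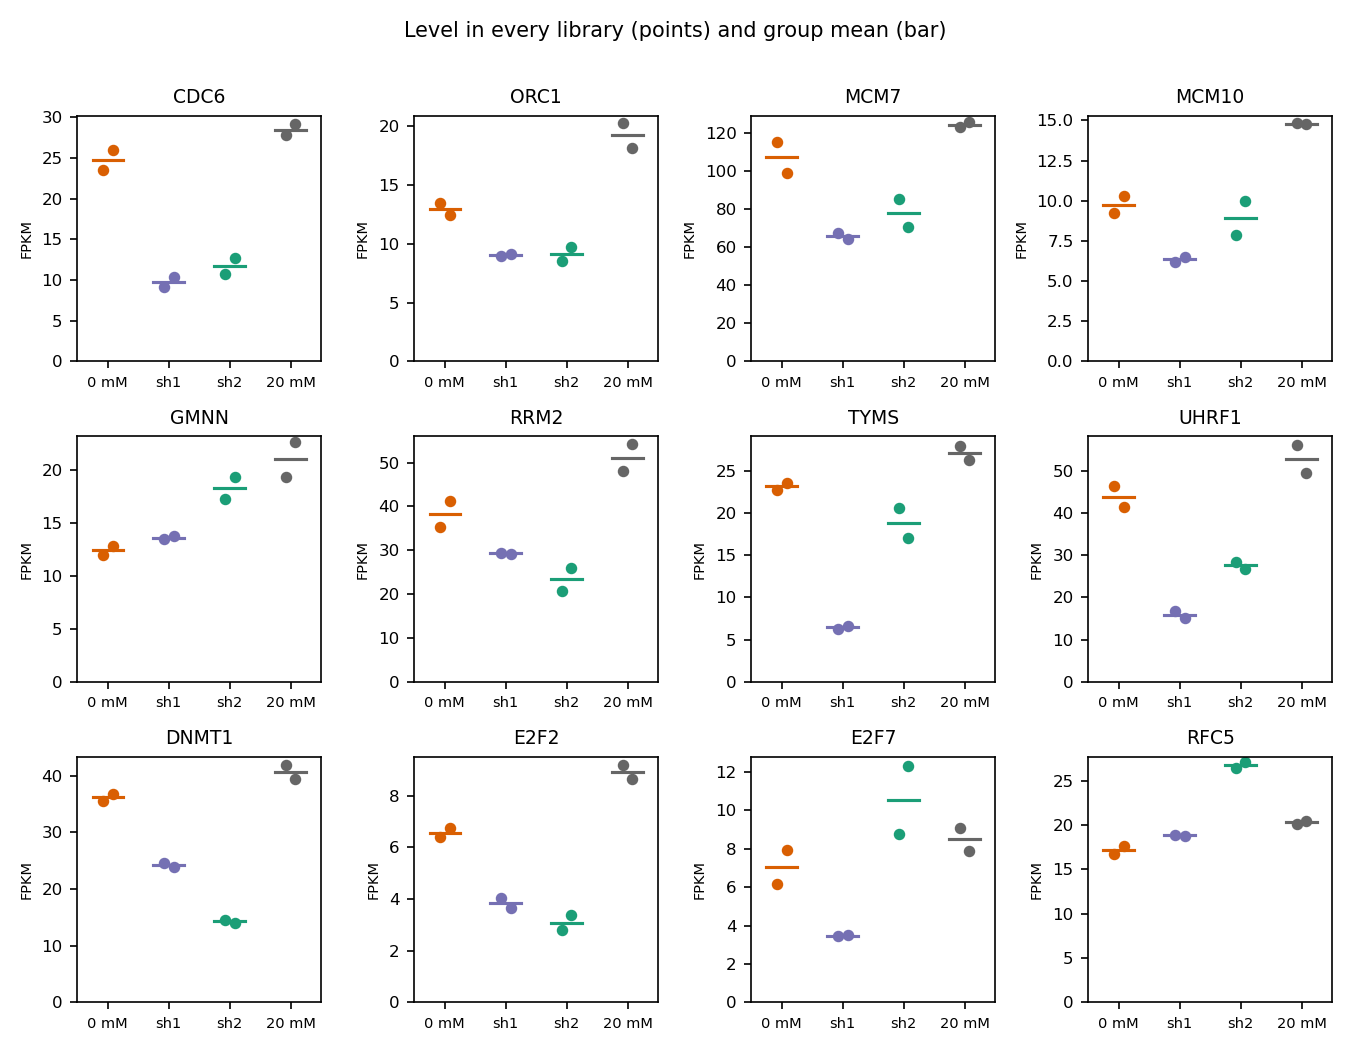
FPKM (y axis, from 0) of 12 members in each of the 8 libraries, as points, with a bar at the mean of the 2 libraries, for 0 mM glucose, shRNA 1 (sh1), shRNA 2 (sh2) and the 20 mM controls. CDC6, ORC1 and E2F2 were low with both shRNAs, TYMS and E2F7 were lowest with shRNA 1, DNMT1 and RRM2 were lowest with shRNA 2, and GMNN was lowest at 0 mM.

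After 24 h without glucose 0 of the 54 members were called in either direction (0% of all genes, with a lowest adjusted p of 0.0863 over all genes, limma). Of the members, 51 of 54 had a log2 fold change below 0, with a median of -0.26, against -0.01 over all genes. At an unadjusted p below 0.05, 26 members were lower and 1 was higher, where the shares of all genes were 4.72% and 4.03%. Both 0 mM libraries lay below both 20 mM controls for 46 members (22.2% of all genes) and above both for 2 (19.1%). The median member stood at 82.4% and 83.2% of the 20 mM mean in the 0 mM libraries. A fit on reads recovered from the FPKM values called 1 member lower and 0 higher, against 0.0185% and 0.154% of all genes.

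That member was GMNN, which had 12.0 and 12.8 FPKM at 0 mM, against 19.3 and 22.6 FPKM at 20 mM. Its log2 fold change was -0.71 ± 0.11 (SE; adjusted p = 0.202, limma) on the FPKM scale and -0.76 in the read-based fit (adjusted p = 0.0448). The call was lost in that fit without either 0 mM library, either shRNA 1 library or either 20 mM library. ASF1B had 29.7 and 25.8 FPKM at 0 mM, against 43.6 and 43.2 FPKM at 20 mM, a difference of -0.63 ± 0.11 (adjusted p = 0.219). MCM10 had 9.25 and 10.3 FPKM at 0 mM, against 14.8 and 14.8 FPKM at 20 mM, at -0.56 ± 0.12 (adjusted p = 0.345). In each of these 3 genes the 2 groups did not overlap, and none passed the test on the FPKM scale.

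Among the other licensing genes ORC1 had 13.4 and 12.4 FPKM at 0 mM, against 20.2 and 18.2 FPKM at 20 mM (-0.53 ± 0.10, adjusted p = 0.315). CDC6 and CDT1, which partner ORC1 in loading, differed by -0.20 and -0.08. The 6 subunits of the MCM ring were lower by 0.22 (MCM7) to 0.46 (MCM4) on the log2 scale, and all 11 helicase genes were below 0. MCM4 had 42.1 and 39.7 FPKM at 0 mM, against 56.8 and 56.3 FPKM at 20 mM, and GINS2 had 12.2 and 12.6 FPKM at 0 mM, against 17.5 and 19.7 FPKM at 20 mM. Neither passed the test (adjusted p = 0.326 and 0.335). FEN1 (-0.45), PCNA (-0.43), RRM2 (-0.41), RRM1 (-0.29), CHAF1A (-0.39), E2F2 (-0.39) and E2F1 (-0.20) also lay below 0. None of these was called. Of the polymerase and primase genes, 0 of 9 had an unadjusted p below 0.05, with PRIM2 at -0.22 and POLD3 at -0.27.

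The 3 members above 0 at 0 mM were TIMELESS (0.23, adjusted p = 0.497), PRIM1 (0.15, adjusted p = 0.745) and POLA2 (0.07, adjusted p = 0.947). TIMELESS and PRIM1 were also the members with both 0 mM libraries above both 20 mM libraries. Both of them fell with both shRNAs.

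**Figure D4:**
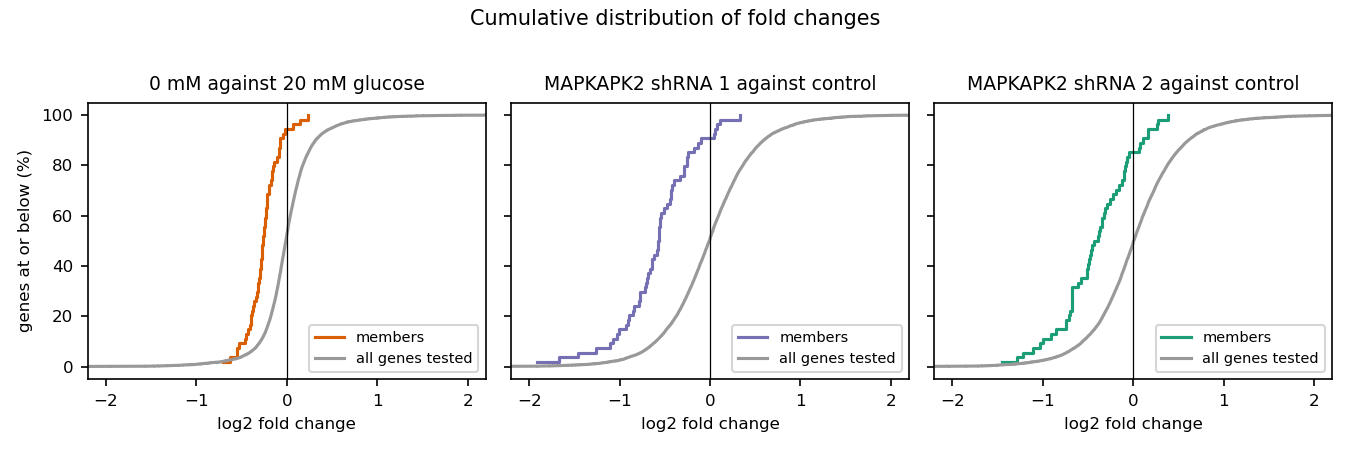
Cumulative share of genes (y axis, %) at or below a given log2 fold change (x axis), for the 54 members in colour and all 16239 genes tested in grey, at 0 mM glucose, with shRNA 1 and with shRNA 2, each against the 20 mM controls. The members' medians are -0.26, -0.57 and -0.41, and the grey curves cross 50% near 0.

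The 2 shRNAs were also set against each other. In shRNA 2 cells 17 members were higher than in shRNA 1 cells and 3 were lower, while 13% of all genes were called higher and 9.13% lower. The 3 lower members make a smaller share than that of all genes. The median log2 difference was 0.21, against 0.03 over all genes. With the filter at 5 FPKM in at least 2 libraries the medians were 0.21 and 0.10. In that setting 18 members were higher and 3 lower, against 1947 and 1103 of all 8610 genes. Of the 6 epithelial markers tested, 5 were lower with shRNA 2 than with shRNA 1 and 0 higher, and their part in this comparison was not tested. The split of the members moved with scaling. It was 8 higher and 7 lower under quantile normalization, against 1768 higher and 1822 lower of all 16239 genes. Under median-of-ratios scaling it was 13 higher and 4 lower, against 1883 and 1648 of all genes. Without either shRNA 1 library fewer members were called higher, and fewer of all genes were. The members' median difference was then 0.16 without library 1 and 0.17 without library 2, against 0.03 and 0.04 over all genes. Both shRNA 2 libraries lay above both shRNA 1 libraries for 31 members (32% of all genes) and below both for 12 (27.9%).

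TYMS had 20.6 and 17.0 FPKM with shRNA 2, against 6.26 and 6.65 FPKM with shRNA 1, a log2 difference of 1.40 ± 0.11 (SE; adjusted p = 0.000587, limma). E2F7 had 8.77 and 12.3 FPKM with shRNA 2, against 3.44 and 3.53 FPKM with shRNA 1 (1.35 ± 0.17, adjusted p = 0.00317). RFC1 had 16.5 and 21.8 FPKM with shRNA 2, against 8.40 and 9.50 FPKM with shRNA 1 (1.01 ± 0.14, adjusted p = 0.00373). UHRF1 was higher with shRNA 2 by 0.76 (adjusted p = 0.00436). These 4 calls held in all 26 alternatives. DNMT1 went the other way, with 14.5 and 14.1 FPKM with shRNA 2, against 24.6 and 23.9 FPKM with shRNA 1 (-0.72 ± 0.08, adjusted p = 0.00184), and this call also held in all 26. MCM3 (-0.42, adjusted p = 0.024) and LIG1 (-0.42, adjusted p = 0.0277) were the other members lower with shRNA 2. For CDC6 (0.24, interval -0.03 to 0.52) and ORC1 (0.01, interval -0.24 to 0.25) no difference between the shRNAs was called, with 95% intervals on the log2 scale. The polymerase and primase genes gave 0 calls among 9.

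Other genes of the same pathways were counted in the same way under both shRNAs, without a test against the members. Their lists were chosen with earlier results of these data known. The shares of all genes stand at 7.77% lower and 9.56% higher, and the few rises in these lists, 0 to 2 in each, are near the second share. Of 16 further licensing and origin-firing genes, 6 fell and 1 rose. DBF4B (-0.63, adjusted p = 0.0036), an activator of the kinase CDC7, CDC7 itself (-0.56, adjusted p = 0.0133) and TICRR (-0.64, adjusted p = 0.00723), which helps recruit CDC45, were among those that fell. ORC5, an ORC subunit, rose (0.52, adjusted p = 0.0138), with 12.2 and 12.1 FPKM with shRNA 1 and 8.07 and 9.89 FPKM with shRNA 2, against 6.76 and 7.17 FPKM in the 20 mM controls. Of 22 further fork and chromatin genes tested, 7 fell and 0 rose. PCLAF, a PCNA-binding factor, had 3.73 and 3.78 FPKM with shRNA 1 and 1.00 and 0.815 FPKM with shRNA 2, against 4.37 and 6.29 FPKM in the 20 mM controls (-1.05, adjusted p = 0.00394), so that the low values were those of shRNA 2. The chromatin remodeller HELLS fell by 0.86 and CLSPN, claspin of the replication checkpoint, by 0.76. DNMT3B, a methyltransferase that sets new marks, had 6.44 and 7.01 FPKM with shRNA 1 and 16.3 and 17.0 FPKM with shRNA 2, against 7.57 and 7.03 FPKM in the 20 mM controls. It rose with shRNA 2 (1.09 ± 0.09, adjusted p = 0.000642), the group in which DNMT1 was lowest.

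Of 11 further nucleotide supply genes, 4 fell and 1 rose. CAD (-0.43), which starts pyrimidine synthesis, and SHMT1 (-0.41), which supplies folate-bound carbon, were among those that fell. RRM2B, the reductase subunit known as a p53 target, rose (0.43, adjusted p = 0.0449), in the direction opposite to RRM2. Of 14 RB-family, DREAM and further E2F genes tested, 3 fell and 2 rose. RBL1, the RB relative p107, fell by 0.71 (adjusted p = 0.0133) and MYBL2, a cell cycle transcription factor, by 0.54 (adjusted p = 0.0141). TFDP2, a dimer partner of E2F, rose (0.57, adjusted p = 0.0043), as did E2F5 (0.53, adjusted p = 0.0189). At 0 mM glucose 0 genes of these 4 lists were called, and the gene with the smallest p was DTL (-0.55) for licensing, ASF1A (-0.31) for fork and chromatin and MYBL2 (-0.33) for the RB-family, DREAM and further E2F list.

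Mitosis genes, whose RNA peaks later in the cycle, were counted in the same way. Of 31 tested, 19 fell and 0 rose with shRNA 1 (10.5% of all genes lower, 9.35% higher), with a median log2 fold change of -0.49. Fewer of them, and fewer of all genes, fell without either shRNA 1 library or either 20 mM control library. The mitosis median was then -0.53 to -0.47. With shRNA 2, 1 fell and 3 rose, shares near or below those of all genes (7.73% lower, 11.1% higher), and the 3 became 0 without 20 mM control library 1 or with only the groups compared. The median was 0.06 and turned to -0.0089 under quantile normalization. With both shRNAs 4 fell and 0 rose (7.77% of all genes lower, 9.56% higher), with a median of -0.22. Without 20 mM control library 1 or 2 fewer fell, and the median was -0.20 or -0.22. Against shRNA 1, 21 of the 31 were higher with shRNA 2 and 0 were lower (13% and 9.13% of all genes), with a median difference of 0.56. Without shRNA 1 library 1 or 2 fewer were called, and the median was 0.61 or 0.52. With only the groups compared 10 were higher, against 687 of all 16239 genes. CCNA2, cyclin A2, had 25.6 and 25.1 FPKM with shRNA 1 and 48.8 and 55.2 FPKM with shRNA 2, against 45.3 and 43.5 FPKM in the 20 mM controls, and AURKA, the Aurora A kinase, had 16.5 and 15.8 FPKM with shRNA 1 and 32.7 and 32.7 FPKM with shRNA 2, against 21.6 and 24.7 FPKM in the 20 mM controls. Not every mitosis gene had this order, and KIF2C, a kinesin that takes microtubules apart, had 21.0 and 19.8 FPKM with shRNA 1 and 25.6 and 24.3 FPKM with shRNA 2, against 35.5 and 39.4 FPKM in the 20 mM controls and fell with each shRNA. The median mitosis gene stood at 71.0% and 67.5% of the 20 mM mean with shRNA 1 and at 100.1% and 109% with shRNA 2, where the median replication gene stood at 74.9% and 75.8%. At 0 mM glucose all 31 mitosis genes were below 0, with a median of -0.39, and 0 were called. At an unadjusted p below 0.05, 24 were lower, where the share of all genes was 4.72%. The read-based fit also called 0, and 11 without either shRNA 2 library. The median mitosis gene stood at 72.9% and 77.7% of the 20 mM mean there. CDKN1A, the p21 inhibitor of cyclin-dependent kinases, had 119.6 and 111 FPKM in the 0 mM libraries, 109 and 99.7 FPKM with shRNA 1, 105 and 88.8 FPKM with shRNA 2 and 108 and 105 FPKM in the 20 mM controls and was not called in any comparison. The part of these genes in the results for replication genes was not tested.

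**Figure D5:**
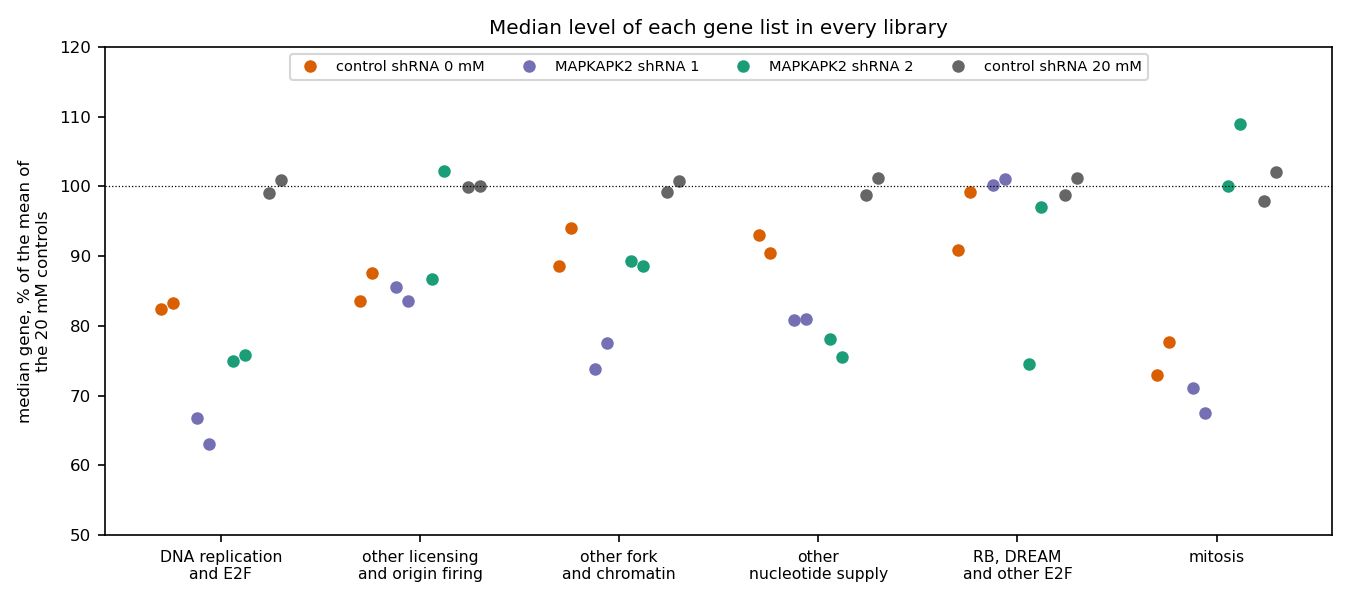
Median level of the genes of each list in every library, as a percentage of the mean of the 20 mM controls (y axis, from 50 to 120), for the 54 DNA replication and E2F genes, 4 lists of further genes of these pathways and the mitosis list. The replication genes lay below the controls in all 6 other libraries, and the mitosis genes lay at 100.1% and 109% with shRNA 2.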

How the data were processed

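RNA-seq of 8 HCT116 libraries was analysed from a gene table. The authors deposited the values in FPKM. The submitters' processing notes name HISAT2 (version 2.0.5), featureCounts (version 1.5.0-p3) and DESeq2 (version 1.20.0) without their roles, and the genes match GENCODE release 29 on GRCh38 in identifier, name, position and exon length for all 58735 genes. Whole reads were recovered from FPKM, gene length and the step of each library, with 100% of values whole within 0.001, and were used for depth and for a read-based alternative (limma voom).

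Groups were taken from the sample titles. The log2(FPKM + 1) values of 16239 genes (at least 1 FPKM in at least 2 libraries) were fitted with limma 3.58.1 in R 4.3.3 as 4 group means, with an intensity trend and 4 residual degrees of freedom. Tests were two-sided with Benjamini-Hochberg adjustment over all these genes at 0.05. Tables and promoters were handled in Python 3.11.15 with pandas 2.3.3. RefSeq promoters were matched by symbol.

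Alternatives were other pseudocounts and filters, protein-coding genes only, 2 scalings, only the groups compared, a replicate block, the read-based fit and each library left out. Intervals cover 95% and depth figures cover counting error only. Genes named with values per library, at 0 mM for some of them only, were those of a list (the MCM ring, CDC6, CDT1, GMNN, PCNA, RRM2, TYMS, UHRF1 and the E2F genes) and, in each role, the called members with the smallest p. The members, lists and rules were chosen with earlier results of these data known. Single values for other members, DNMT3B, RRM2B, E2F5, ORC5, CCNA2, AURKA, KIF2C and CDH1 were added after their values were seen. The values of 1 further listed gene are not reported here.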

Additional observations from a re-analysis of the deposited data

Results flagged for a closer look

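The response of 20 members differed between the 2 shRNAs by the test of the difference itself (limma on log2(FPKM + 1), shRNA 2 minus shRNA 1), 17 higher and 3 lower, while 13% of all genes were called higher and 9.13% lower. Of these, 4 higher and 1 lower were kept in all 10 alternatives that used every library. Quantile normalization gave 8 higher and 7 lower, against 1768 higher and 1822 lower of all 16239 genes. With the filter at 5 FPKM in at least 2 libraries, 18 members were higher and 3 lower, against 1947 and 1103 of all 8610 genes. Of the licensing and helicase genes, GMNN differed by 0.40, MCM5 by 0.38, CDC45 by 0.36, GINS2 by 0.41, GINS4 by 0.38 and MCM3 by -0.42. Of the fork and clamp genes, MCM10 differed by 0.43, TIMELESS by 0.32, FEN1 by 0.48, LIG1 by -0.42, RFC1 by 1.01, RFC5 by 0.49, RPA1 by 0.35 and RPA3 by 0.56. Of the remaining genes, RRM1 differed by 0.46, TYMS by 1.40, UHRF1 by 0.76, DNMT1 by -0.72, ASF1B by 0.66 and E2F7 by 1.35. MAPKAPK2 itself was lower with shRNA 2 by 0.95 on the log2(FPKM + 1) scale and by 1.57 on the log2 scale in the read-based fit, with 0.982 and 0.800 FPKM in shRNA 2 cells and 2.77 and 2.54 FPKM in shRNA 1 cells.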

How the results depend on the processing

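Over the fits that left out 1 library, the members that fell numbered 14 to 38 with both shRNAs (24 to 41 in the read-based fit), 18 to 40 with shRNA 1 (27 to 42) and 12 to 28 with shRNA 2 (20 to 32), and at 0 mM glucose 0 (0 to 10). The members that rose numbered 0 with both shRNAs (0 to 1 in the read-based fit), 0 to 1 with shRNA 1 (0 to 1), 0 to 1 with shRNA 2 (0 to 4) and 0 at 0 mM glucose (0). In shRNA 2 against shRNA 1, 4 to 13 members were called higher (6 to 16) and 1 to 5 lower (1 to 7). The 10 falls at 0 mM glucose came from the read-based fit without either shRNA 2 library, and without any other library that fit called 0. With every library, the read-based fit called 1 fall at 0 mM glucose. With only the groups compared, and so fewer libraries in the fit, 31 members fell with both shRNAs and 39 with shRNA 1. Of all 16239 genes, 983 and 2106 did. In that setting 11 members fell and 0 rose with shRNA 2, against 353 and 608 of all genes. In shRNA 2 against shRNA 1, 4 members were higher and 1 lower, against 687 and 449 of all genes. Under quantile normalization 0 rose with shRNA 2, against 1541 of all 16239 genes. In shRNA 2 against shRNA 1, that scaling gave 8 members higher and 7 lower, against 1768 and 1822 of all genes. The cause of these differences was not tested.

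Of the 37 falls with both shRNAs, 29 were kept in all 10 alternatives that used every library and 11 in all 26. The members' median log2 fold change kept its sign throughout, from -0.57 to -0.46 with both shRNAs and from -0.29 to -0.23 at 0 mM glucose. Of single-member values, 0 reversed a called direction.

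No source used here says whether libraries with the same replicate number belong together. Correlations of the replicate differences between groups ran from -0.03 to 0.18, and pairing was not tested further. Over all genes, the read-based fit called 25 higher and 3 lower at 0 mM glucose without a replicate block, and 60 and 20 with it. With a replicate block 37 members fell with both shRNAs, 38 with shRNA 1, 31 with shRNA 2 and 0 at 0 mM glucose. Of all 16239 genes, 1391, 1867, 1375 and 0 did. In shRNA 2 against shRNA 1, 15 members were higher and 3 lower, against 2266 and 1540 of all genes. In the read-based fit with the replicate block 5 fell at 0 mM glucose, 1 rose with shRNA 1, and 6 were lower in shRNA 2 against shRNA 1. At 81 to 10490 reads per member and library, the Poisson standard deviation from counting was at most 11.1% of a value.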
